A study of Rattus norvegicus with 36 samples.

Results

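The amygdala dissections of a rat blast study were compared between 5 libraries of blast-exposed rats and 4 libraries of sham-exposed rats, all taken 6 weeks after exposure. They were chosen as the read-count columns of the amygdala table and make up 9 of the 36 libraries of the series, the others being hippocampus, anterior cortex and cerebellum. Libraries are named here by group and by the number in their title, which gives blast 1, 2, 5, 6 and 9 and sham 12, 13, 16 and 18. The sources used here do not give the strain, sex or age of the rats, the blast pressure, the number of exposures or the way the amygdala was cut out. The labels do not tie the numbers to separate animals, and a p-value here covers no more than the spread among these libraries, which may be technical. Between 15667480 and 21643208 reads per amygdala library were counted on genes, and no pair of libraries within a group repeated the counts of the other.

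The amygdala is a cluster of nuclei in the temporal lobe that attaches fear and reward to sensory input. Its basolateral part resembles cortex and is built of glutamatergic projection neurons with scattered GABAergic interneurons, whereas the central and medial nuclei and the intercalated cell masses are largely GABAergic and rich in neuropeptides. Striatum, endopiriform and piriform cortex, ventral hippocampus and the temporal horn of the lateral ventricle, with its choroid plexus, border it, so a dissected piece can carry tissue of each. RNA of a whole piece cannot tell fewer cells of a type apart from less RNA per cell.

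The pieces carried amygdala genes, although Crh, a peptide of the central nucleus, was sparse. Levels are given as CPM, the reads of a gene scaled to the reads on all genes of its library, unless stated otherwise. Esr1, the oestrogen receptor alpha of the medial nucleus, had 1.44 to 4.45 CPM in blast amygdala and 3.17 to 5.42 CPM in sham amygdala, while sham libraries of the other regions ran from 0.499 to 2.21 CPM. Cyp19a1, the aromatase that makes oestradiol, had 1.39 to 3.54 CPM in blast amygdala and 3.56 to 4.31 CPM in sham amygdala, against at most 2.01 CPM in sham hippocampus and 0 CPM in sham cerebellum. Against sham anterior cortex, Cyp19a1 was among the 50 genes most higher in sham amygdala that are used for a scale below. Nr2f2, a transcription factor of the caudal telencephalon, had 78.7 to 90.4 CPM in sham amygdala and at most 16.9 CPM in any sham library of another region. Per gene length, in the FPKM values the authors deposited, the vesicular glutamate transporter Slc17a7 averaged 564 in blast and 569 in sham libraries, and the GABA-synthesising enzyme Gad1 averaged 71.2 in blast and 82.6 in sham libraries. On the same scale Sst, the precursor of somatostatin, averaged 149.7 in blast and 181.5 in sham libraries, while Crh, which encodes the stress hormone corticotropin-releasing hormone, averaged 1.30 in blast and 1.32 in sham libraries. Prkcd, a kinase of central nucleus neurons that is also made by other cells, averaged 9.15 in blast and 8.14 in sham libraries. Npy, the precursor of neuropeptide Y, had at most 4 reads in any amygdala library and was left out of the test of blast against sham. The filter on low counts left it out of that test in each other region too. Whether reads of this gene were counted in full was not tested.

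The library blast 6 stood apart from the other 8. Of 13604 genes with a mean log2 CPM above 1, it lay more than 0.5 above every other library for 176 genes and more than 0.5 below every other library for 248, whereas the other libraries did so for 3 to 99 and 16 to 91 genes. Nr2f2 and Dlk1 were low in it. Nr2f2 had 23.4 CPM in blast 6, 80.1 to 102.5 CPM in the other 4 blast libraries and 78.7 to 90.4 CPM in sham libraries. Dlk1, a marker of medial and central nuclei, had 1.86 CPM in blast 6, 6.71 to 10.9 CPM in the other 4 blast libraries and 6.69 to 11.2 CPM in sham libraries.

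A scale from anterior cortex to amygdala put these differences in 1 number. It is the mean log2 CPM of the 50 genes most higher in sham amygdala minus that of the 50 genes most higher in sham anterior cortex, among those past the edgeR threshold between these sham groups. Blast 6 scored -0.759, the other 4 blast libraries 1.87 to 2.22 and the sham amygdala libraries 2.39 to 2.67, while sham anterior cortex lay between -2.91 and -2.47. Because the sham amygdala libraries helped to choose these genes, each was also scored with genes chosen without it. Over these choices blast 6 scored -0.586 to -0.268, the other 4 blast libraries 1.73 to 2.64 and the sham library left out of the choice 1.57 to 2.21. On the like scale from hippocampus, blast 6 scored -0.727, the other 4 blast libraries 0.64 to 1.26 and sham libraries 0.807 to 1.52. With genes chosen without 1 sham library, blast 6 scored -1.26 to -0.518, the other 4 blast libraries 0.597 to 1.37 and that sham library 0.266 to 1.13. Blast 6 therefore lay outside the range of all other amygdala libraries on each scale, and values without it stand beside many of the results that follow.

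**Figure D1:**
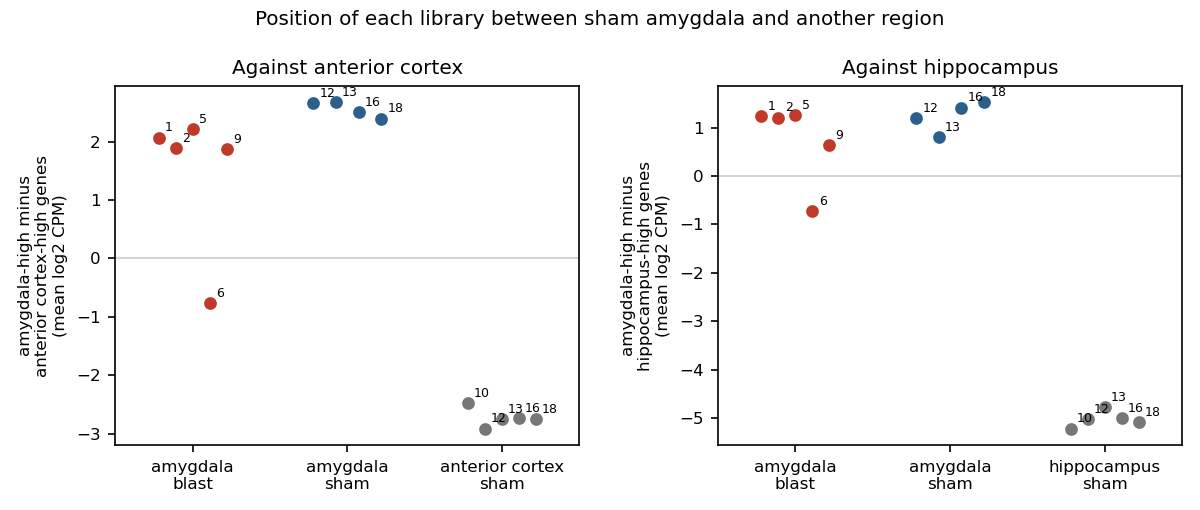
Points are libraries, numbered as in their titles; the vertical axis is the mean log2 CPM of 50 genes high in sham amygdala minus that of 50 genes high in sham anterior cortex (left) or sham hippocampus (right). Blast 6 sits at -0.759 and -0.727, below every other amygdala library.

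The library blast 9 carried choroid plexus, the tissue that makes cerebrospinal fluid. Ttr, its thyroid hormone carrier, had 1602 CPM in blast 9, 1.92 to 16.03 CPM in the other 4 blast libraries and 2.23 to 10.3 CPM in sham libraries. The 12 choroid plexus genes in the table summed to 11.1 to 2064 CPM in blast libraries and 10.8 to 26.1 CPM in sham libraries, with none at 0 in all libraries. The median log2 fold change of the 10 tested was 3.44, and 0.18 without blast 6 and blast 9. Among sham libraries, sham 13 had the lowest Ppp1r1b, the DARPP-32 phosphoprotein of striatal projection neurons, at 85.3 CPM against 119.6 to 145.5 CPM in the other 3, and the lowest score of basal forebrain cholinergic genes.

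Over all genes, no gene passed the threshold between blast and sham amygdala. Of 15884 genes tested by edgeR's quasi-likelihood test, 0 had a Benjamini-Hochberg adjusted p under 0.05 (0% called; smallest adjusted p = 0.901). At an unadjusted p under 0.05 there were 829 genes (5.22%), 445 higher (2.8%) and 384 lower (2.42%). DESeq2 called 10 of the 15845 genes it adjusted (0.0631%), and the authors' deposited table holds 8 of 11224 genes with an adjusted p under 0.05 (0.0713%). In 121 genes (0.762%) every blast library lay above every sham library, and in 133 (0.837%) every blast library lay below. Differences of genes named below are therefore values that did not pass the edgeR test, each with an adjusted p of at least 0.901, and calls by DESeq2 or in the authors' table are given where they exist. The median log2 fold change of all genes was 0.00, with 49% of genes below 0, and each list below is set beside these.

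The enzymes that make GABA and the transporter that loads it were lower in blast libraries. Gad2, the glutamate decarboxylase found mainly at nerve terminals (ENSRNOG00000018200; chromosome 17, 89171250 to 89238040 as deposited, in a build that is not named), had 239, 207, 221, 184 and 199 CPM in blast 1, 2, 5, 6 and 9. It had 273, 253, 305 and 259.8 CPM in sham 12, 13, 16 and 18. The blast libraries all lay below the sham libraries, and the log2 fold change was -0.37 (SE 0.08), which DESeq2 called (adjusted p = 0.0261) and edgeR did not (adjusted p = 0.901). The authors' deposited table calls it too (adjusted p = 0.00926). Without blast 6 it was -0.33 and without blast 6 and blast 9 it was -0.30. Gad1, the other glutamate decarboxylase, which makes most GABA in the cell body, had 216, 197, 175.5, 183 and 179 CPM in blast libraries and 219, 220.1, 245 and 199 CPM in sham libraries. Blast 1 reached into the sham range, and the log2 fold change was -0.21 (SE 0.07). Slc32a1, the transporter that loads GABA into vesicles, averaged 78.6 ± 9.32 CPM in blast and 91.5 ± 7.16 CPM in sham libraries (SD, n = 5 and 4), with overlap and a log2 fold change of -0.22 (SE 0.09).

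Other genes of the GABA list varied. Slc6a13, a GABA transporter of the meninges and vessels, was at -0.24 (-0.04 without blast 6), with 7.73 to 26.3 CPM in blast and 12.6 to 34.7 CPM in sham libraries. Slc6a11, a GABA uptake transporter of astrocytes, was at -0.05 (0.02 without blast 6), and Abat, the enzyme that breaks GABA down, was at 0.05 on the log2 fold change scale. Of the 7 tested genes 6 were lower and 1 was higher, with a median of -0.21, against 4 of 7 lower and a median of -0.04 without blast 6. Of 14 tested transcription factors of GABAergic neurons 11 were lower, by a median of -0.13. Dlx2 and Dlx5 were at -0.24 and -0.23 (-0.19 and -0.08 without blast 6), and none of the 14 reached an unadjusted p of 0.05. Of 16 tested GABA receptor subunits 13 were lower, by a median of -0.15 (-0.12 without blast 6 and blast 9). Gabra2, the alpha subunit tied to the anxiety-reducing effect of benzodiazepines, was the member of smallest p, at 120.9 ± 14.6 CPM in blast and 143 ± 7.36 CPM in sham libraries (log2 fold change -0.24, SE 0.08), and the groups overlapped.

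**Figure D2:**
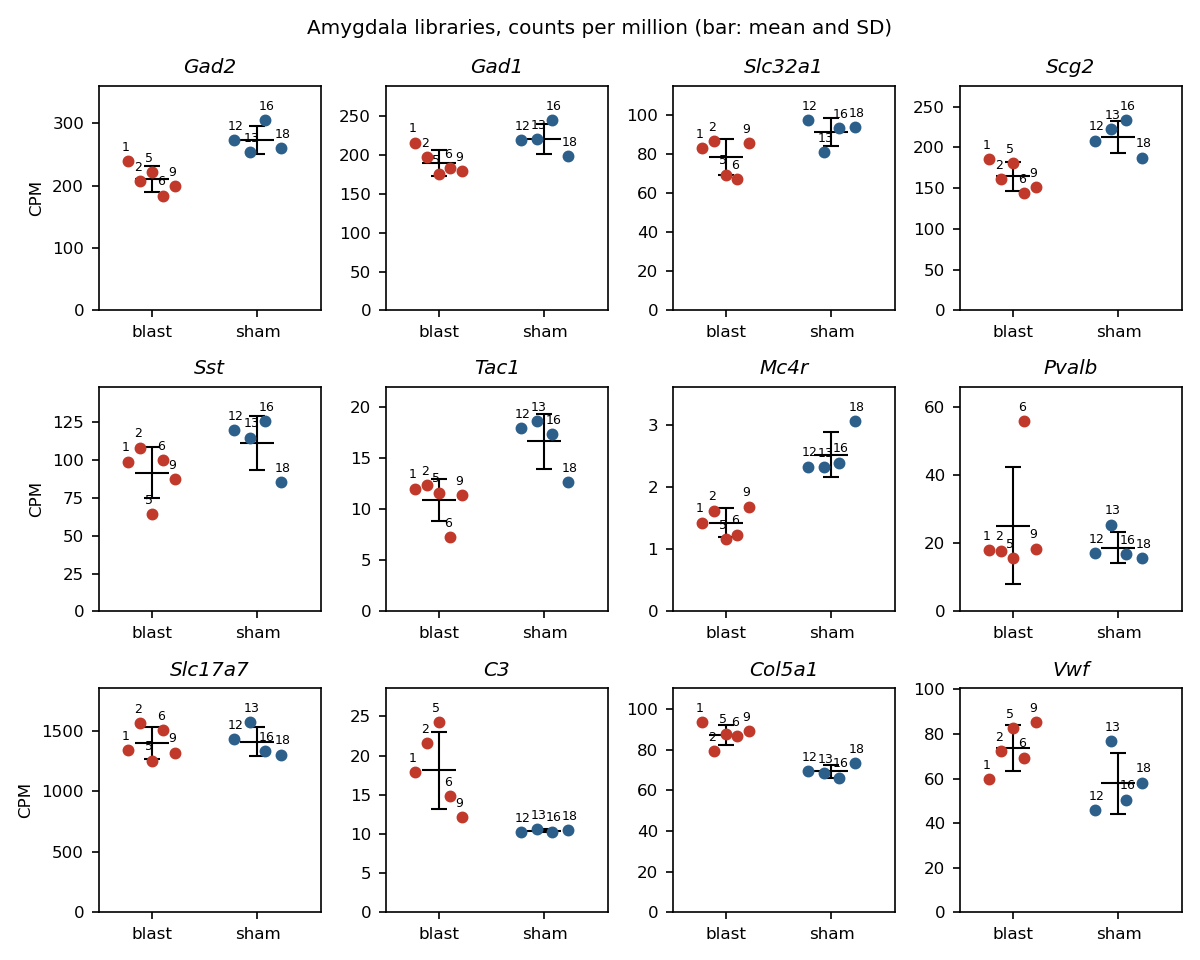
CPM of 12 genes in each amygdala library (points, numbered as in the titles), blast left of sham, with the mean and SD of each group as a bar. Gad2, Tac1, Scg2 and Mc4r show all blast points below all sham points, C3 and Col5a1 all blast points above, and blast 6 alone stands out in Pvalb at 55.7 CPM.

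Among interneuron classes, listed genes of somatostatin cells had values below 0, and those of parvalbumin cells turned on blast 6; the difference between the classes was not tested. Somatostatin cells inhibit the dendrites of projection neurons, and parvalbumin cells their cell bodies. All 7 tested genes of the somatostatin list were lower, by a median of -0.23, and 6 of 7 without blast 6, by a median of -0.31. Sst itself had 99.0, 108, 64.3, 99.9 and 87.4 CPM in blast libraries and 119, 115, 126 and 85.3 CPM in sham libraries. Blast 5 was lowest, sham 18 lay among the blast libraries, and the log2 fold change was -0.27 (SE 0.14). Grin3a, the NMDA receptor subunit enriched in somatostatin cells, had 17.5, 15.1, 16.2, 10.8 and 13.6 CPM in blast libraries and 19.4, 18.8, 21.9 and 19.3 CPM in sham libraries. Those groups did not overlap, with a log2 fold change of -0.44 (SE 0.13). Chodl, a marker of long-range somatostatin cells, averaged 1.40 ± 0.851 CPM in blast and 2.30 ± 0.178 CPM in sham libraries. Blast 6 and blast 9 were lowest, at 0.412 and 0.687 CPM, the groups overlapped, and the log2 fold change of -0.71 was -0.22 without both.

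Of the 7 tested parvalbumin genes 5 were higher, by a median of 0.03, and 1 of 7 without blast 6, by a median of -0.10. Pvalb had 55.7 CPM in blast 6, 15.6 to 18.4 CPM in the other 4 blast libraries and 15.6 to 25.4 CPM in sham libraries, and its log2 fold change of 0.43 became -0.10 without blast 6. Syt2, a synaptic calcium sensor of these cells, had 28.7 CPM in blast 6, 2.62 to 6.42 CPM in the other 4 blast libraries, and 4.96 to 7.88 CPM in sham libraries. Of 8 tested genes of VIP and CCK cells 4 were lower, by a median of -0.05, and 5 of 8 without blast 6, by a median of -0.00397. Vip was at 20.5 ± 4.23 CPM in blast and 19.2 ± 1.08 CPM in sham libraries, Cck at 217 ± 34.1 CPM in blast and 214.7 ± 39.0 CPM in sham libraries. Cnr1, the cannabinoid receptor that marks CCK cells, had 211.9 ± 23.6 CPM in blast and 256 ± 44.0 CPM in sham libraries (log2 fold change -0.27, SE 0.11), with overlap.

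**Figure D3:**
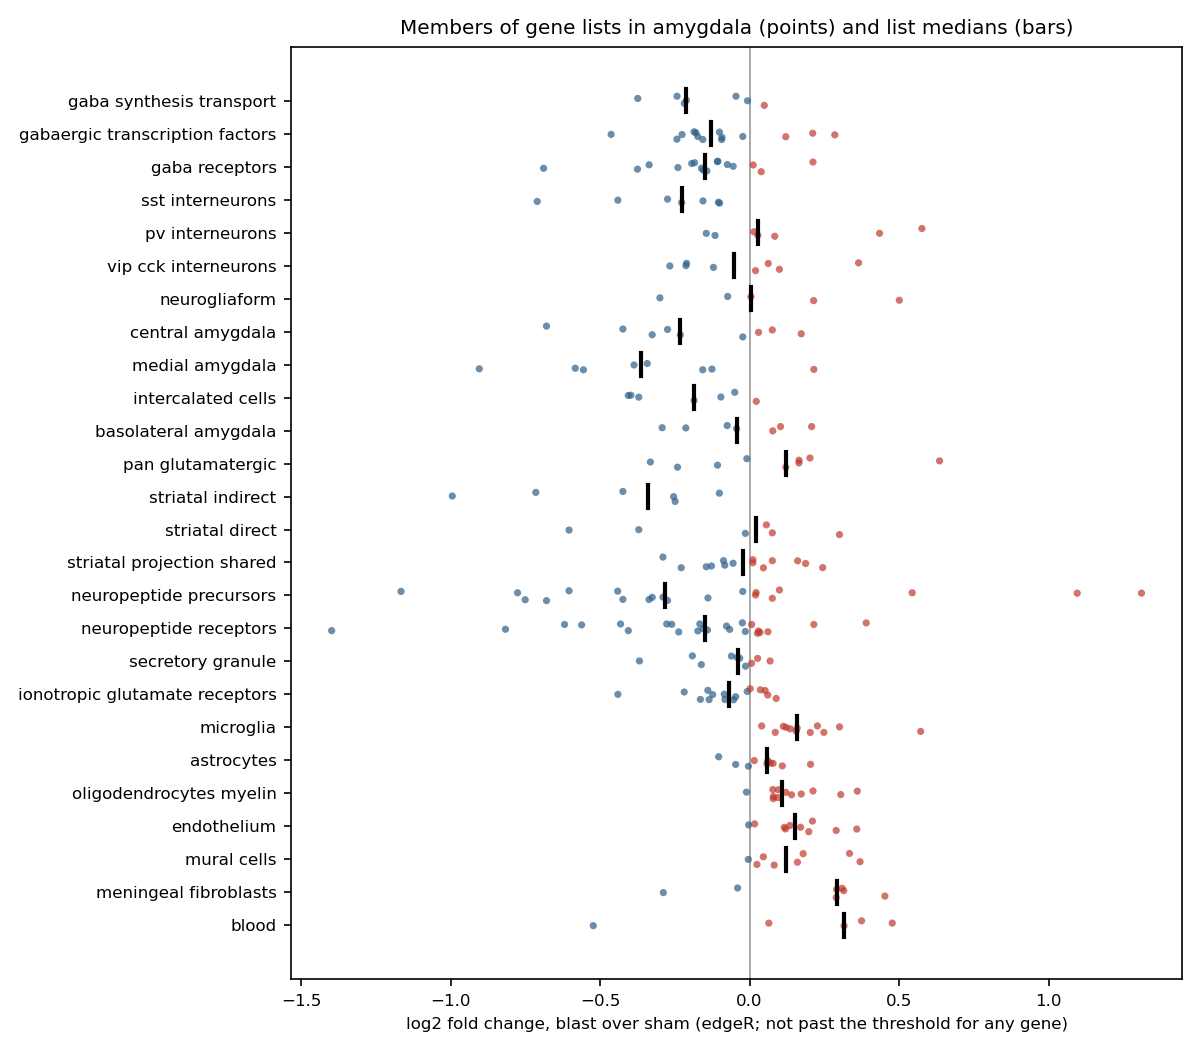
Each point is 1 tested gene, placed by its log2 fold change of blast over sham; rows are gene lists and black bars their medians. All 7 somatostatin genes lie left of 0 and all 12 microglial genes right of it, and no single gene passed the edgeR threshold.

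By nucleus, the lists of the medial, central and intercalated cells each had a median below 0. That of basolateral cells lay near 0, at -0.04, and had the opposite sign in 5 of 13 refits. Differences between these lists were not tested. Some genes stand in several lists of this report, among them Sst, Penk, Drd1, Lhx6 and Meis2, so counts of lower members are not independent between lists. Of 8 tested medial nucleus genes 7 were lower, by a median of -0.36, and 6 of 8 without blast 6, by a median of -0.23 (-0.14 without blast 6 and blast 9). Cyp19a1 had 2.82, 3.54, 3.45, 1.39 and 2.59 CPM in blast libraries and 4.31, 3.56, 4.24 and 4.08 CPM in sham libraries, without overlap, at a log2 fold change of -0.56 (SE 0.25). Esr1 was at -0.39, with overlap, and at -0.20 without blast 6 and -0.12 without blast 6 and blast 9. Sim1 and Otp, transcription factors of hypothalamus-derived medial neurons, had 0 CPM in blast 6 and varied widely among the rest, Sim1 running up to 2.04 CPM in blast and from 0.162 to 2.67 CPM in sham libraries. Of 9 tested central nucleus genes 6 were lower, by a median of -0.23 (-0.22 without blast 6, -0.08 without blast 6 and blast 9). Nts, the precursor of neurotensin, had 2.08, 2.34, 1.61, 2.37 and 2.27 CPM in blast libraries and 1.98, 3.51, 4.57 and 3.70 CPM in sham libraries (log2 fold change -0.68, SE 0.25). Sham 12 lay within the blast range. Prkcd had 21.6 ± 1.30 CPM in blast and 19.3 ± 3.63 CPM in sham libraries, and Crh 1.55 ± 0.613 CPM in blast and 1.58 ± 0.477 CPM in sham libraries. Both genes overlapped between the groups.

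Intercalated cells are GABAergic clusters that relay between basolateral and central nuclei. Of their 7 tested genes 6 were lower, by a median of -0.19 (5 of 7 and -0.14 without blast 6; -0.11 without blast 6 and blast 9). The members with the lowest values were Oprm1, the mu opioid receptor, at -0.41, Erbb4 at -0.40 and Drd1, the dopamine D1 receptor, at -0.37 (-0.24 without blast 6, -0.11 without blast 6 and blast 9), while their more selective markers Foxp2 and Tshz1 were at -0.10 and 0.02 (-0.14 and 0.06 without blast 6). Of 7 tested basolateral genes 4 were lower, by a median of -0.04, and 6 of 7 without blast 6, by a median of -0.16. Rspo2, a Wnt co-activator of basolateral projection neurons, had 23.4 ± 3.87 CPM in blast and 24.8 ± 5.95 CPM in sham libraries. Slc17a7 had 1396 ± 132 CPM in blast and 1409 ± 121 CPM in sham libraries, a log2 fold change of -0.01 (SE 0.08). Slc17a6, the glutamate transporter of medial and subcortical neurons, had 18.3 ± 3.22 CPM in blast and 23.1 ± 4.81 CPM in sham libraries, at -0.33 (SE 0.15). The sums of the 6 genes of claustrum and endopiriform nucleus were 469 to 519 CPM in blast and 528 to 543 CPM in sham libraries, without overlap, whereas their mean log2 CPM overlapped, at 5.15 to 5.33 in blast and 5.26 to 5.53 in sham libraries. All 6 were lower, by a median of -0.09 (4 of 6 without blast 6 and blast 9, and a median of 0.04 without sham 18). Much of each sum came from the member Gng2, at 290.7 CPM on average in blast and 319.2 CPM in sham libraries, which itself overlapped between the groups. Among the 36 gene lists only that of claustrum and endopiriform nucleus had sums without overlap, and whether this goes beyond chance was not tested.

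Genes of striatal neurons were read as 3 lists, with no test between them. Of the 14 genes shared by striatal projection neurons 7 were higher and 7 lower, by a median of -0.02, and their sums were 1260 to 1510 CPM in blast and 1200 to 1450 CPM in sham libraries. All 6 genes of indirect-pathway neurons were lower, by a median of -0.34, and 4 of 6 without blast 6 and blast 9, by a median of -0.24. Adora2a, the adenosine receptor of these neurons, had 7.67, 8.29, 5.12, 2.68 and 4.12 CPM in blast libraries and 17.0, 4.16, 11.4 and 11.6 CPM in sham libraries. Sham 12 was highest and sham 13 lay among the lowest blast libraries, at a log2 fold change of -0.99 (SE 0.38). Drd2, the dopamine D2 receptor, had 3.89 ± 1.35 CPM in blast and 6.37 ± 1.81 CPM in sham libraries, at -0.72 (SE 0.27), and overlapped. Penk, the precursor of enkephalin, had 17.8 CPM in blast 6 and 64.5 to 101.0 CPM in the other 4 blast libraries, against 44.95 CPM in sham 13 and 97.4 to 122 CPM in the other 3 sham libraries. Of 6 tested direct-pathway genes 3 were lower, with a median of 0.02, and 4 of 6 without blast 6, with a median of -0.15. With the shared striatal score as a covariate the GABA list had a median of -0.19 and the somatostatin list -0.23, and Gad2 was at -0.37.

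Neuropeptides and their secretory machinery differed for single members. Of 20 tested precursors 13 were lower, by a median of -0.28, and 16 of 20 without blast 6 and blast 9, by a median of -0.17. Tac1, the precursor of substance P, had 12.01, 12.4, 11.6, 7.27 and 11.4 CPM in blast libraries and 17.9, 18.6, 17.4 and 12.6 CPM in sham libraries. The groups did not overlap and sham 18 lay closest to the blast libraries; the log2 fold change was -0.60 (SE 0.16). Its adjusted p was 0.0413 in the authors' deposited table and 0.215 by DESeq2, which did not call it. Pomc, the precursor of melanocortins and beta-endorphin, ran the other way, at 8.51 CPM in blast 5 and 2.17 to 2.90 CPM in the other 4 blast libraries, against 1.47 to 1.98 CPM in sham libraries. The hypothalamic genes as a group summed to 4.33 to 28.9 CPM in blast and 7.45 to 20.04 CPM in sham libraries, highest in blast 5, where Trh, the precursor of thyrotropin-releasing hormone, had 13.6 CPM against at most 1.27 CPM in the other blast and 2.23 CPM in sham libraries.

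Scg2, secretogranin II of the dense-core granules that hold neuropeptides (ENSRNOG00000015055; chromosome 9, 85237458 to 85243001 as deposited), had 186, 161, 180.2, 144 and 151 CPM in blast libraries and 208, 222, 233 and 187 CPM in sham libraries. Blast 1 and sham 18 were nearly equal, but the groups did not overlap, at a log2 fold change of -0.37 (SE 0.08; DESeq2 adjusted p = 0.0542; -0.28 without blast 6 and blast 9). The other granule genes differed little. Of the 10 tested 7 were lower, by a median of -0.04, with Chga at 0.07 and Vgf at -0.16. Scg2 and Sst both carry the full cyclic AMP response element TGACGTCA, the palindrome bound by CREB, near their start in RefSeq's GRCr8 promoter windows of 300 bases (250 before to 50 after the start), and both are shown for that reason, with the element in capitals. The first is the 250 bases before the Scg2 start (chr9:88256867-88257116, minus strand), and the second is 30 bases around the element of Sst (chr11:90461537-90461566, plus strand). Counted from the start that RefSeq gives, the element begins at -123 in Scg2, before it, and at 2 in Sst, after it. Where transcription begins in these libraries was not tested.
Scg2: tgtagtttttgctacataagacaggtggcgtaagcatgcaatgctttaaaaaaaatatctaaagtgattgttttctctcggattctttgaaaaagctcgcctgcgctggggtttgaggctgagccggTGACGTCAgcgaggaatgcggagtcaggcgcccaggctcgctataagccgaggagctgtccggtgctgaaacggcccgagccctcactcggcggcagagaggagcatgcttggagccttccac
Sst: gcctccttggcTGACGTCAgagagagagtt
The same 8 letters, which read alike on both strands, are in 1.83% of all 33469 such windows and in 3.01% of the 11068 windows of genes tested here. Of the 18 precursor genes with a window 2 hold them, Sst and Cartpt, and of the 9 granule genes 2, Scg2 and Vgf. Among the 9 somatostatin cell genes 2 hold them, Nos1 and Sst, and among the 4 genes of the GABA list with a window 0 do. A match describes these letters and no binding.

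Receptors for neuropeptides were lower more often than higher. Of 24 tested 17 were lower, by a median of -0.15 (-0.13 without blast 6 and blast 9), and the list's mean log2 CPM was 2.67 to 2.97 in blast and 3.02 to 3.16 in sham libraries, without overlap. Their summed level overlapped, at 400.2 to 433 CPM in blast and 418 to 429 CPM in sham libraries. Among the 36 gene lists no other had a mean log2 CPM without overlap. Whether a separation in a single list goes beyond chance was not tested. Mc4r, the melanocortin receptor that acts on feeding and stress, had 1.43, 1.62, 1.17, 1.24 and 1.69 CPM in blast libraries and 2.33, 2.32, 2.40 and 3.06 CPM in sham libraries. The lowest sham library exceeded the highest blast library, at a log2 fold change of -0.82 (SE 0.22), on low counts. Npy2r, a presynaptic receptor for neuropeptide Y, had 5.47 ± 1.77 CPM in blast and 8.09 ± 0.902 CPM in sham libraries, also without overlap, at -0.56 (SE 0.24). Galr1, a galanin receptor, had 1.45 ± 0.892 CPM in blast and 3.83 ± 1.77 CPM in sham libraries, at -1.40 (SE 0.52), lowest in blast 6 at 0.206 CPM. Of 16 ionotropic glutamate receptor subunits 11 were lower, by a median of -0.07. Gria1, an AMPA receptor subunit, had 224, 228, 214, 192 and 203 CPM in blast libraries and 242, 269, 253 and 227 CPM in sham libraries, at -0.22 (SE 0.06). Only blast 2 and sham 18 crossed.

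**Figure D4:**
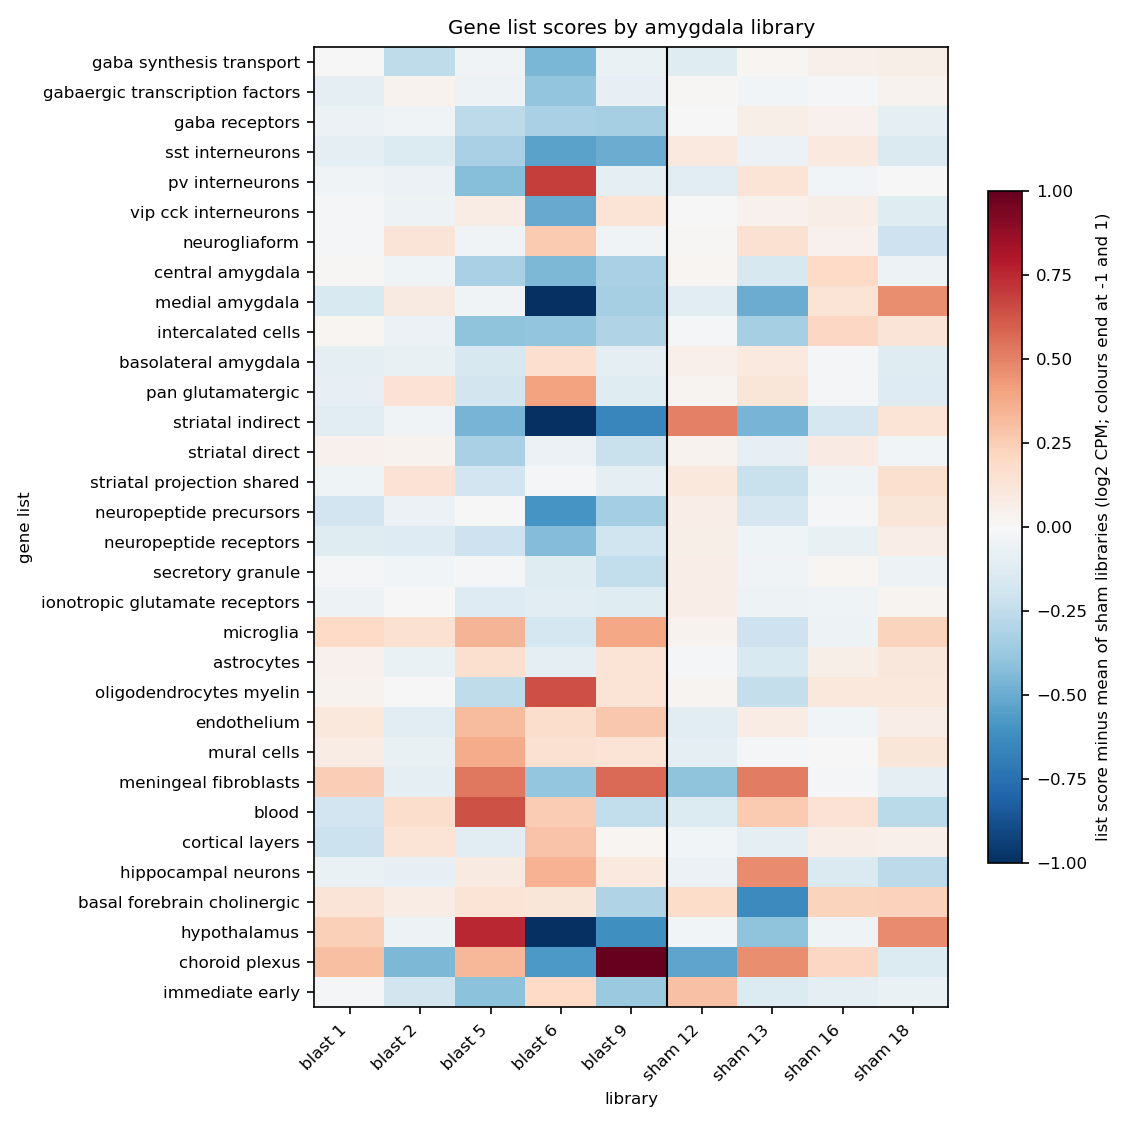
Rows are gene lists, columns the 9 amygdala libraries with blast left of the black line, and colour is the mean log2 CPM of a list minus its mean over the 4 sham libraries. Blast 6 is dark blue for medial nucleus, indirect striatal and hypothalamic genes and red for parvalbumin and myelin genes, and blast 9 is dark red for choroid plexus.

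Outside neurons, most listed genes of vessel cells and microglia were higher in blast libraries, as were C3 and Col5a1. C3, the central complement component (ENSRNOG00000046834; chromosome 9, 9721105 to 9747167 as deposited), had 17.9, 21.6, 24.3, 14.8 and 12.2 CPM in blast libraries, and 10.3, 10.6, 10.3 and 10.5 CPM in sham libraries. The sham libraries were nearly equal and the blast libraries spread, and every blast library lay above every sham library. The log2 fold change was 0.80 (SE 0.18), with an adjusted p of 0.0261 by DESeq2, 0.901 by edgeR and 0.00383 in the authors' deposited table. Without blast 6 and blast 9, the blast libraries of lowest C3, it was 1.03 and passed edgeR's test (adjusted p = 0.0327). Leaving them out was chosen after seeing the data and took away the lowest blast values, so that pass adds no support. Col5a1, a chain of the fibrillar collagen type V (ENSRNOG00000008749), had 93.5, 79.4, 87.8, 86.5 and 89.1 CPM in blast libraries and 69.4, 68.4, 66.2 and 73.4 CPM in sham libraries. All blast libraries were higher, at 0.33 (SE 0.06; DESeq2 adjusted p = 0.0128; 0.00383 as adjusted p in the authors' deposited table), and at 0.32 without blast 6 and blast 9. Fn1, fibronectin of the vessel wall and matrix, had 87.2 ± 8.99 CPM in blast and 64.1 ± 13.8 CPM in sham libraries, at 0.45 (SE 0.12), with sham 13 at 83.0 CPM inside the blast range.

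Of 10 tested endothelial genes 9 were higher, by a median of 0.15 (0.12 without blast 6 and blast 9). Vwf, the clotting factor made by endothelium, had 59.7, 72.4, 82.6, 69.3 and 85.3 CPM in blast libraries and 45.9, 76.7, 50.6 and 58.2 CPM in sham libraries, at 0.36 (SE 0.14), and sham 13 lay among the blast libraries. Pald1, a phosphatase of endothelium, had 15.8 to 20.5 CPM in blast and 10.9 to 13.6 CPM in sham libraries (log2 fold change 0.47, SE 0.12), and Cavin3, a coat protein of caveolae, 14.6 to 20.05 CPM in blast and 12.1 to 12.6 CPM in sham libraries (0.50, SE 0.12). Of 8 genes of mural cells 7 were higher (median 0.12). Among them was Abcc9, a channel subunit of pericytes, at 0.33 (SE 0.13) and without overlap. Blood genes were high in some blast libraries as well. Hbb, a beta globin, had 126 ± 24.8 CPM in blast and 90.7 ± 19.2 CPM in sham libraries, and the 6 blood genes summed to 359 to 659 CPM in blast and 297 to 459 CPM in sham libraries, highest in blast 5. Of 7 tested meningeal fibroblast genes, several of them matrix genes, 5 were higher, by a median of 0.29, and the matrix proteoglycans Dcn and Lum were at -0.29 and -0.04. The sums of these 7 genes were 327 to 773 CPM in blast and 323 to 635 CPM in sham libraries. Whether blood or meninges left on the piece take part in the vessel and matrix values was not tested.

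All 12 tested microglial genes were higher, by a median of 0.16 (0.25 without blast 6), and 11 of 12 without blast 6 and blast 9, by a median of 0.22. Cx3cr1, the fractalkine receptor, had 33.0 ± 4.42 CPM in blast and 27.8 ± 1.75 CPM in sham libraries (log2 fold change 0.25, SE 0.10), P2ry12, the ADP receptor of resting microglia, 35.05 ± 5.43 CPM in blast and 28.5 ± 7.29 CPM in sham libraries, and both overlapped. Their summed level was 448 to 594 CPM in blast and 445 to 554 CPM in sham libraries. Of 12 oligodendrocyte genes 11 were higher, by a median of 0.11, but 6 of 12 without blast 6, with a median of -0.02, and 1 of 12 without blast 6 and blast 9, with a median of -0.07. Mbp, the myelin basic protein, had 3858 CPM in blast 6, 1714 to 2489 CPM in the other 4 blast libraries and 1528 to 2134 CPM in sham libraries. Of 10 astrocyte genes 7 were higher, by a median of 0.06. Glul, which makes glutamine from glutamate, had 1329 ± 97.2 CPM in blast and 1155 ± 72.2 CPM in sham libraries, at 0.20 (SE 0.08). Immediate early genes, a read-out of recent firing, had 13 of 16 members lower (median -0.06), and 14 of 16 without blast 6 (median -0.18), with Fos at 4.96 ± 1.504 CPM in blast and 6.99 ± 2.41 CPM in sham libraries.

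Several genes of small p belong to none of these groups. Among those without overlap was Nxph1, a neurexin ligand made by interneurons. It had 32.3 ± 1.68 CPM in blast and 39.3 ± 2.83 CPM in sham libraries (log2 fold change -0.28, SE 0.06). Its adjusted p was 0.0493 in the authors' deposited table and 0.179 by DESeq2. Rerg, a small GTPase, was at -0.40 (SE 0.09), Lrrcc1, a centriolar protein, at -0.36 (SE 0.09), Fbxl21, a subunit of ubiquitin ligases, at -0.46 (SE 0.11), and Dock11, Drg1 and Ift74 at -0.41, -0.26 and -0.35. Fance, of the Fanconi DNA repair complex, had 25.0 to 30.5 CPM in blast and 19.8 to 21.5 CPM in sham libraries, at 0.41 (SE 0.08; DESeq2 adjusted p = 0.0261; 0.0125 as adjusted p in the authors' deposited table). Lmna, the nuclear lamin A, was at 0.27 (SE 0.07), Nop53 at 0.29 (SE 0.07) and Tap2, a peptide transporter of antigen presentation, at 1.55 (SE 0.39) on 0.601 to 1.598 CPM in blast and 0.319 to 0.396 CPM in sham libraries. Ahi1, a ciliary protein, was at -0.45 (SE 0.11), with blast 1 at 161 CPM inside the sham range of 160.3 to 192 CPM. For Ahi1 the adjusted p was 0.0493 in the authors' deposited table and 0.1755 by DESeq2.

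Counts of some genes of small p are uncertain. Rpl21, Rpl36 and Rps20 encode ribosomal proteins, a class known for near-identical processed copies, and whether reads were shared with copies was not tested. They were at 0.64, 0.30 and 0.27 on the log2 fold change scale. DESeq2 called Rpl21 (adjusted p = 0.00488) and Rpl36 (adjusted p = 0.0261) but not Rps20 (adjusted p = 0.152). The authors' deposited table calls Rpl21 (adjusted p = 0.0161) but not Rpl36 or Rps20 (adjusted p = 0.5747 for both). Fam131a, the gene of smallest p, had 3.04 to 20.9 CPM in blast and 45.9 to 113 CPM in sham libraries, at -2.86 (SE 0.47). DESeq2 called it (adjusted p = 0.0128) and the authors' deposited table does not (adjusted p = 0.078). Other genes called by DESeq2, chosen here after their values were seen, switched between levels within a group. Tnks2 had 19.6 to 22.9 CPM in blast 1, 2 and 5 and at most 2.06 CPM in blast 6 and 9 and 0.971 CPM in sham libraries, whereas Pnpla1 had 0.687 to 1.67 CPM in blast libraries, 1.04 CPM in sham 12 and 6.80 to 12.4 CPM in the other 3 sham libraries.

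Set against the other regions, no gene differed more in amygdala beyond the error. The amygdala effect minus the mean effect of the other 3 regions was tested over 36 libraries and 17120 genes, of which edgeR called 0 (0%; smallest adjusted p = 0.354), with 821 (4.8%) at an unadjusted p under 0.05. Gad2 had log2 fold changes of -0.37 (SE 0.08) in amygdala, -0.25 (SE 0.11) in hippocampus, 0.09 (SE 0.08) in anterior cortex and -0.07 (SE 0.09) in cerebellum, a difference of -0.30 (SE 0.11; edgeR adjusted p = 0.988). Gad1 was lower in every region, at -0.21 in amygdala, -0.12 in hippocampus, -0.22 in anterior cortex and -0.08 in cerebellum, and so was Slc32a1, at -0.22, -0.18, -0.13 and -0.21 in the same order; neither passed the test in any region. Scg2 was at -0.37 in amygdala, -0.28 in hippocampus, -0.11 in anterior cortex and -0.01 in cerebellum. Sst was at -0.27 in amygdala, -0.28 in hippocampus, -0.38 in anterior cortex and 0.13 in cerebellum. C3 was higher in blast libraries of each region, at 0.80 (SE 0.18) in amygdala, 0.73 (SE 0.26) in hippocampus, 0.51 (SE 0.20) in anterior cortex and 0.40 (SE 0.15) in cerebellum. Fn1 was likewise higher, at 0.45 in amygdala, 0.52 in hippocampus, 0.69 in anterior cortex and 0.33 in cerebellum. Neither C3 nor Fn1 passed edgeR's test in any region, and libraries of different regions may not be independent. Adora2a and Drd2 had opposite signs in amygdala and anterior cortex, at -0.99 and -0.72 in amygdala and 0.36 and 0.34 in anterior cortex, with differences from the mean of the other regions of -1.14 (SE 0.34) and -1.03 (SE 0.30) that did not pass (edgeR adjusted p = 0.922 for both). The genes of smallest p for the difference, none of which passed, were Phex, Fbxl21, Tbcb and Ap4e1 on the lower side (-1.84, -0.54, -3.50 and -0.42). On the higher side they were Tnks2, Rpl7a, Tmem190 and Def8 (5.54, 4.61, 1.55 and 0.22). Tnks2 switched between levels within blast amygdala, as given above. The ribosomal protein gene Rpl7a was at 3.285 (SE 1.256) in amygdala and -3.32 (SE 1.191) in hippocampus. Tbcb was at -3.678 (SE 1.024) in amygdala and 0.4136 (SE 0.2881) in hippocampus. Whether counting of reads takes part in such large values was not tested.

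**Figure D5:**
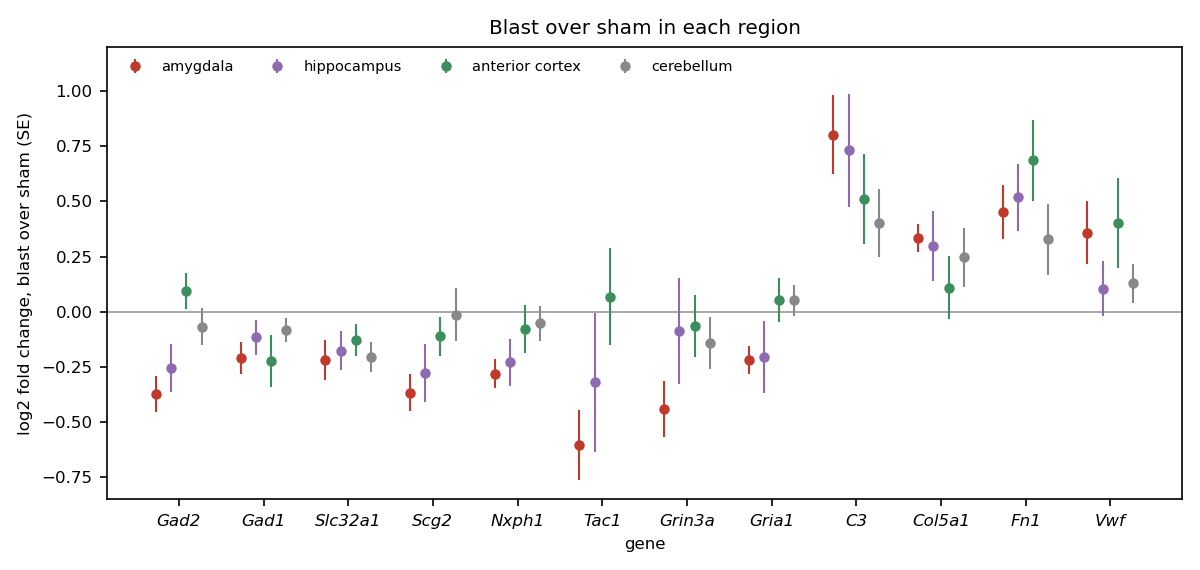
Log2 fold change of blast over sham with its SE for 12 genes in each region, amygdala in red; Tac1 was not tested in cerebellum. C3 and Fn1 lie above 0 in all 4 regions without passing edgeR's test in any, and Gad2, at -0.37 in amygdala, lies at 0.09 in anterior cortex.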

How the data were processed

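Total RNA was extracted with Qiazol and RNeasy columns and made into libraries with a NEBNext Ultra kit, per the labels' protocols. The submitters' processing notes name CASAVA; the sources used here do not give the aligner, counter, strand setting or genome build, and Ensembl coordinates are printed as deposited. Per the file headers, the deposited columns are read counts of each gene, FPKM values (scaled to gene length and library size), log2 fold changes and p-values, all made by the authors. From the counts, edgeR 4.0.16 in R 4.3.3 (filterByExpr, TMM, quasi-likelihood F test, Benjamini-Hochberg adjusted p under 0.05) gave blast against sham over the 9 amygdala libraries, 15884 of 24044 genes, and the region difference over 36 libraries in 8 groups. DESeq2 1.42.0 and limma 3.58.1 (voom) were alternatives; edgeR was tested on simulated counts. Scores are mean log2 CPM with a prior count of 2. SDs are over libraries.

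The members and the 36 gene lists were chosen with earlier results of these data known. Of 345 listed genes 332 were in the amygdala table and 311 were tested, some listed under older symbols matched through RefSeq. Genes named are 26 of fixed name, those called by edgeR or in the authors' table, the 10 of smallest p in each direction without overlap, up to 3 of smallest p per list and 4 in each direction for the region difference. List members named beyond these, and Nr2f2, Dlk1, Tnks2 and Pnpla1, were chosen after their values were seen. Promoter sequences are from RefSeq (GRCr8). In all 63 columns of per-sample values, such as the authors' normalized counts, were not used. Some genes are not reported here.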

Additional observations from a re-analysis of the deposited data

Results flagged for a closer look

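Groups of 4 or 5 libraries were searched for a library far from the others in its group. Of 164 group and measure combinations 13 were picked out, and about 1 in 20 would be by chance. In blast libraries, Pvalb was 55.7 CPM in blast 6 and Ttr 1600 CPM in blast 9, each far above the rest of the group. Blast 6 was also lowest for Tac1, at 7.27 CPM, and for the mean log2 CPM of neuropeptide receptor genes, at 2.67, and highest for that of basolateral genes, at 6.14. Blast 9 was highest for choroid plexus genes, at 5.66, and lowest for basal forebrain cholinergic genes, at 0.0697. Blast 5 was highest for Pald1, at 20.5 CPM. In sham libraries, sham 13 was highest for Pvalb, at 25.4 CPM, and Ift74, at 20.8 CPM, and lowest for cholinergic genes, at -0.266. Sham 12 was highest for immediate early genes, at 4.56, and for Tap2, at 0.396 CPM.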

How the results depend on the processing

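For genes called between blast and sham amygdala, the count of 0 became 10 by DESeq2, 2 without blast 6 and blast 9 (C3 and Tnks2; chosen after seeing the data) and 0 to 1 with each library left out (LOC108348062 without blast 1, adjusted p = 0.0213; Pnpla1 without sham 12, adjusted p = 0.0215). It remained 0 with DESeq2's size factors in edgeR, without the filter on low counts, by limma-voom, with all 36 libraries in the fit and with the striatal or choroid plexus score as a covariate. For the region difference the count of 0 became 1 (Tbcb) without sham 16 or sham 18, a range of 0 to 1 with each library left out. It was 0 with the numbers as a replicate block. Libraries of 1 number correlated between amygdala and other regions at -0.131 to 0.17 in their deviations from group means. Though these correlations were low, 6 of 9 amygdala libraries correlated best with their own number in hippocampus, 6 of 7 in anterior cortex and 7 of 8 in cerebellum. That is a hint of pairing from the data and not from the labels. The main test of the region difference took the 36 libraries as independent, which may not hold. No pairing exists between blast and sham within amygdala, which share no number.

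Among the named genes refitted under every alternative, the sign of a small difference turned over for 10. Among other named genes, refitted only without blast 6 and without blast 6 and blast 9, it turned without blast 6 for Syt2 (-0.38), Nr2f2 (0.05), Dlk1 (0.02), Lum (0.07) and Slc6a11 (0.02). Without blast 6 and blast 9 the log2 fold change was -0.0137 for Cck, -0.136 for Pdyn, -0.127 for Pvalb and -0.00967 for Rorb. With the choroid plexus covariate it was 0.094 for Crh and 0.0126 for Slc17a7, and by limma-voom -0.0186 for Pdyn. With each library left out the ranges were -0.078 to 0.0926 for Cck, -0.234 to 0.182 for Crh, -0.252 to 0.0401 for Foxp2, -0.225 to 0.194 for Pdyn, -0.098 to 0.605 for Pvalb, -0.00277 to 0.152 for Rorb, -0.174 to 0.0721 for Rspo2, -0.04998 to 0.037 for Slc17a7, -0.0195 to 0.0789 for Tshz1 and -0.00757 to 0.188 for Vip. List medians that moved beyond the spread were those of choroid plexus genes (0.06 without blast 9, 0.05 with the choroid plexus covariate), basolateral genes (-0.16 without blast 6 and without sham 18, 0.07 without sham 13), direct-pathway genes (-0.15 without blast 6), GABA synthesis genes (-0.04 without blast 6), claustrum genes (0.04 without sham 18) and ionotropic glutamate receptors (-0.01 without blast 5). The cause was not tested. Gad2 stayed between -0.42 and -0.30 in all 17 alternatives, edgeR's adjusted p running from 0.704 to 0.994. Genes near 1 CPM, such as Mc4r and Galr1, rest on few reads, and 5 against 4 libraries limit the precision throughout.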
